A study of Mus musculus with 36 samples.

Results

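The genes described here are 9 transcription factors that set keratinocyte fate: Trp63, Klf4, Klf5, Grhl1, Grhl2, Grhl3, Ovol1, Dlx3 and Znf750. They were chosen by name, with earlier results of these data known, and are 9 of the 55358 genes counted. Of these, 8 were found by symbol, and Znf750 was found under its mouse symbol Zfp750, which the RefSeq gene table links to it. Poly(A) RNA of cultured murine keratinocytes was sequenced in 36 libraries, 3 for each of 12 groups, which cross 3 genotypes (WT, PKP4-KO, Rescue) with 2 calcium media (LCM, HCM) and 2 times (24 h, 72 h). The labels mark the 24 h groups LD and the 72 h groups HD and tie these codes to the hours alone, so any other difference the codes stand for cannot be told apart from time. The groups allow the question of how each factor follows calcium and time in culture, and whether this differs without PKP4, a plakophilin of cell-cell junctions. WT cells were Pkp4-wildtype and PKP4-KO cells Pkp4-knockout keratinocytes, both isolated from the epidermis of newborn pups of one backcrossed mouse line. The knockout allele lacks exon 9 of Pkp4 in all cells of the animal, so the loss is neither induced nor confined to the epidermis. Rescue cells were PKP4-KO keratinocytes that carried a lentiviral construct for human PKP4 tagged with EGFP and had been selected with puromycin to a stable line, which WT and PKP4-KO cells had not. LCM held 50 µM CaCl2, HCM was LCM with 1.2 mM CaCl2 added, and all groups were grown at 32 °C. The 3 replicates of a group are called biological replicates in the study's design, but no label ties them to separate animals. The p-values therefore measure the spread between these libraries, which may be technical.

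Epidermal keratinocytes divide in the basal layer and differentiate as they move outward, and raising the calcium of cultured mouse keratinocytes starts junction assembly and the same programme. p63, encoded by Trp63, maintains the basal, stratified-epithelial state, and KLF5 is a factor of proliferating basal cells. ZNF750, KLF4 and the grainyhead-like factors GRHL1 and GRHL3 switch on differentiation and barrier genes, OVOL1 takes cells out of the proliferating state, and DLX3 is a homeobox factor of the suprabasal layers. GRHL2 sustains epithelial identity through junction genes such as E-cadherin.

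On GRCm39, the build of the deposited counts, the genes lie on 7 chromosomes. Trp63 spans chr16:25502513-25710852 on the plus strand, with 8 annotated transcripts. Klf4 lies at chr4:55527139-55532528 (minus) and Klf5 at chr14:99536086-99552473 (plus). The grainyhead-like genes lie at chr12:24622197-24669816 (Grhl1, plus), chr15:37233280-37363813 (Grhl2, plus) and chr4:135268329-135300992 (Grhl3, minus). Ovol1 lies at chr19:5599164-5610674 (minus). Dlx3 at chr11:95010937-95016122 (plus) and Zfp750 at chr11:121401804-121410620 (minus) share a chromosome. The counts are per gene, over all exons, so the long and short forms of p63, which start from different promoters, cannot be told apart. Of the overlapping antisense genes, Tbcd had the most counts, with 503 to 3155 per library, and shares 94 bp of exon with Zfp750. Gm16136, with 141 to 751 counts, shares 371 bp with Grhl2. The libraries were strand-specific, but the strand setting of the counting was not stated, so reads in these short overlaps may belong to either gene.

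The RefSeq promoter table (GRCm38.p6) holds 3 of the 9 genes, Klf4, Grhl1 and Grhl3. Their sequences from 250 bases before to 50 bases after the start are printed because these 3 factors were higher with calcium in WT and lower in PKP4-KO at 24 h. Grhl1 has 2 annotated starts. Capitals mark CACCC, the core bound by KLF factors, or its reverse complement GGGTG.
Klf4, chr4:55532426-55532725, minus strand: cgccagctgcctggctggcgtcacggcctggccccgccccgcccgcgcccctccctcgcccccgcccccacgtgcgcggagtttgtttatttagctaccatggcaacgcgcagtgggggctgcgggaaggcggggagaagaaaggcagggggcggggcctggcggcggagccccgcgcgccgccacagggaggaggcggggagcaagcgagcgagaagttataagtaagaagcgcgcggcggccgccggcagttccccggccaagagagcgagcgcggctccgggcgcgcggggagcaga
Grhl3, chr4:135573583-135573882, minus strand: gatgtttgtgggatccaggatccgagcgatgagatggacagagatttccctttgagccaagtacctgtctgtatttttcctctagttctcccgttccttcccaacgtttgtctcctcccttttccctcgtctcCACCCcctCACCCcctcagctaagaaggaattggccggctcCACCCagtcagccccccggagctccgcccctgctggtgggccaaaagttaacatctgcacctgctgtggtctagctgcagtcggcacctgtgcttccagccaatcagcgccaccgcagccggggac
Grhl1 first start, chr12:24572037-24572336, plus strand: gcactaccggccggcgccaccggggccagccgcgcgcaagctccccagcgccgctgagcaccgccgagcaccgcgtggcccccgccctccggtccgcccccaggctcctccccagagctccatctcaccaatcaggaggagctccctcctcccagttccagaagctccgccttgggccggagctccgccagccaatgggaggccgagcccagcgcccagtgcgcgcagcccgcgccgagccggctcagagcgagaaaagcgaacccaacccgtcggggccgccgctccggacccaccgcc
Grhl1 second start, chr12:24580469-24580768, plus strand: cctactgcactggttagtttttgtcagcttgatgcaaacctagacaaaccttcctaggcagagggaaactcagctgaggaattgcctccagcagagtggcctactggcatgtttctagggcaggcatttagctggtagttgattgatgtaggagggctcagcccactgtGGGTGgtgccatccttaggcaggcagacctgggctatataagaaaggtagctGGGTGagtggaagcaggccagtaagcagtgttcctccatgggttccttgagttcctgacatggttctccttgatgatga
On both strands, CACCC occurred 3 times in the Grhl3 promoter, 2 times at the second Grhl1 start, and at neither the Klf4 nor the first Grhl1 start. It occurred in 57.5% of all 32817 promoters of this length. The GC box CCGCCC, which can share bases with CACCC, occurred 4 times in Klf4, 2 times at the first Grhl1 start and 1 time in Grhl3, against 35.6% of all promoters with at least 1 match. The CCAAT box occurred 2 times in Grhl3 and 2 times at the first Grhl1 start, against 37.4% of all promoters. The grainyhead motif AACCGGTT (0.146% of all promoters), the AP-1 motif TGANTCA (7.81%) and TATAAA (13.6%) had no match in the 4 windows, which says only that these letters are not in them.

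Each library held 13602728 to 22467187 counts. Pkp4 was at 33.4 to 76.2 CPM in WT libraries, 6.39 to 14.1 in PKP4-KO and 6.52 to 11.9 in Rescue, and the PKP4-KO and Rescue libraries all lay below the WT libraries. The GFP-PKP4 construct had 1902 to 15325 counts in Rescue libraries and 0 to 113 in the others. The keratinocyte markers Krt5, Krt14, Krt15, Itga6, Itgb4, Dsp, Perp and Sfn were detected in every group, with summed levels of 29404 to 79883 CPM. The summed markers of melanocytes (up to 6.67 CPM), fibroblasts (up to 11.6), immune cells (up to 1.45) and endothelial cells (up to 5.20) were far lower, and those of Merkel cells were at 7.56 to 44.4 CPM. Within groups, 1 library often stood apart by its TMM factor, the scaling factor for composition. In the library with the lowest factor of its group, Grhl2 had the lowest of the 3 levels in 11 of 12 groups, and Trp63 and Klf4 in 10 each. The same held for Grhl3 and Zfp750 in 9 groups each, for Grhl1 in 6, for Klf5 in 5, and for Ovol1 and Dlx3 in 3 each. In that library Ovol1 had the highest of the 3 levels in 6 groups, Klf5 and Dlx3 in 5 each, and the other genes in at most 1 each. Among such libraries were replicate 3 of WT 72 h HCM (factor 0.705, against 0.959 or more), replicate 1 of PKP4-KO 24 h LCM (0.928, against 1.13 or more) and replicate 2 of Rescue 72 h LCM (0.881, against 1.1 or more). Others were replicate 2 of WT 24 h HCM (0.897, against 1.07 or more) and replicate 3 of PKP4-KO 24 h HCM (0.982, against 1.12 or more). Replicate 3 of Rescue 24 h LCM (1.03, against 1.19 or more) was a further one. Across groups, the factor was lowest in PKP4-KO 72 h HCM, at 0.481 to 0.546, against 0.705 to 1.39 in the other 33 libraries. Rn18s.rs5, a row of 18S ribosomal RNA, took 0.563% to 5.35% of the counts of a library, and in 9 of 12 groups its share was highest in the library with the lowest factor. It was the most counted gene in 6 libraries, 5 of which had the lowest factor of their group. What part these library differences have in the results was not tested.

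Levels are CPM, counts scaled by library size and TMM factor, and levels of different genes are compared only per kb of counted exon. On that scale, Klf4 was the highest of the 9 in its median over groups, at 89.9 CPM per kb. Zfp750, Trp63, Grhl3, Ovol1, Klf5 and Grhl1 followed within a narrow range (18.8, 15.8, 15.3, 15.2, 14.8 and 12.4), then Grhl2 at 4.76. Dlx3 was near the limit of detection, at 0.120 CPM per kb. Over the 12 groups, the highest group mean was 20.8 times the lowest for Zfp750, 18.1 times for Grhl3, 13.9 times for Grhl1 and 13.3 times for Ovol1. It was 3.61 times for Klf5, 3.32 times for Trp63, 2.92 times for Klf4 and 2.88 times for Grhl2.

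**Figure D1:**
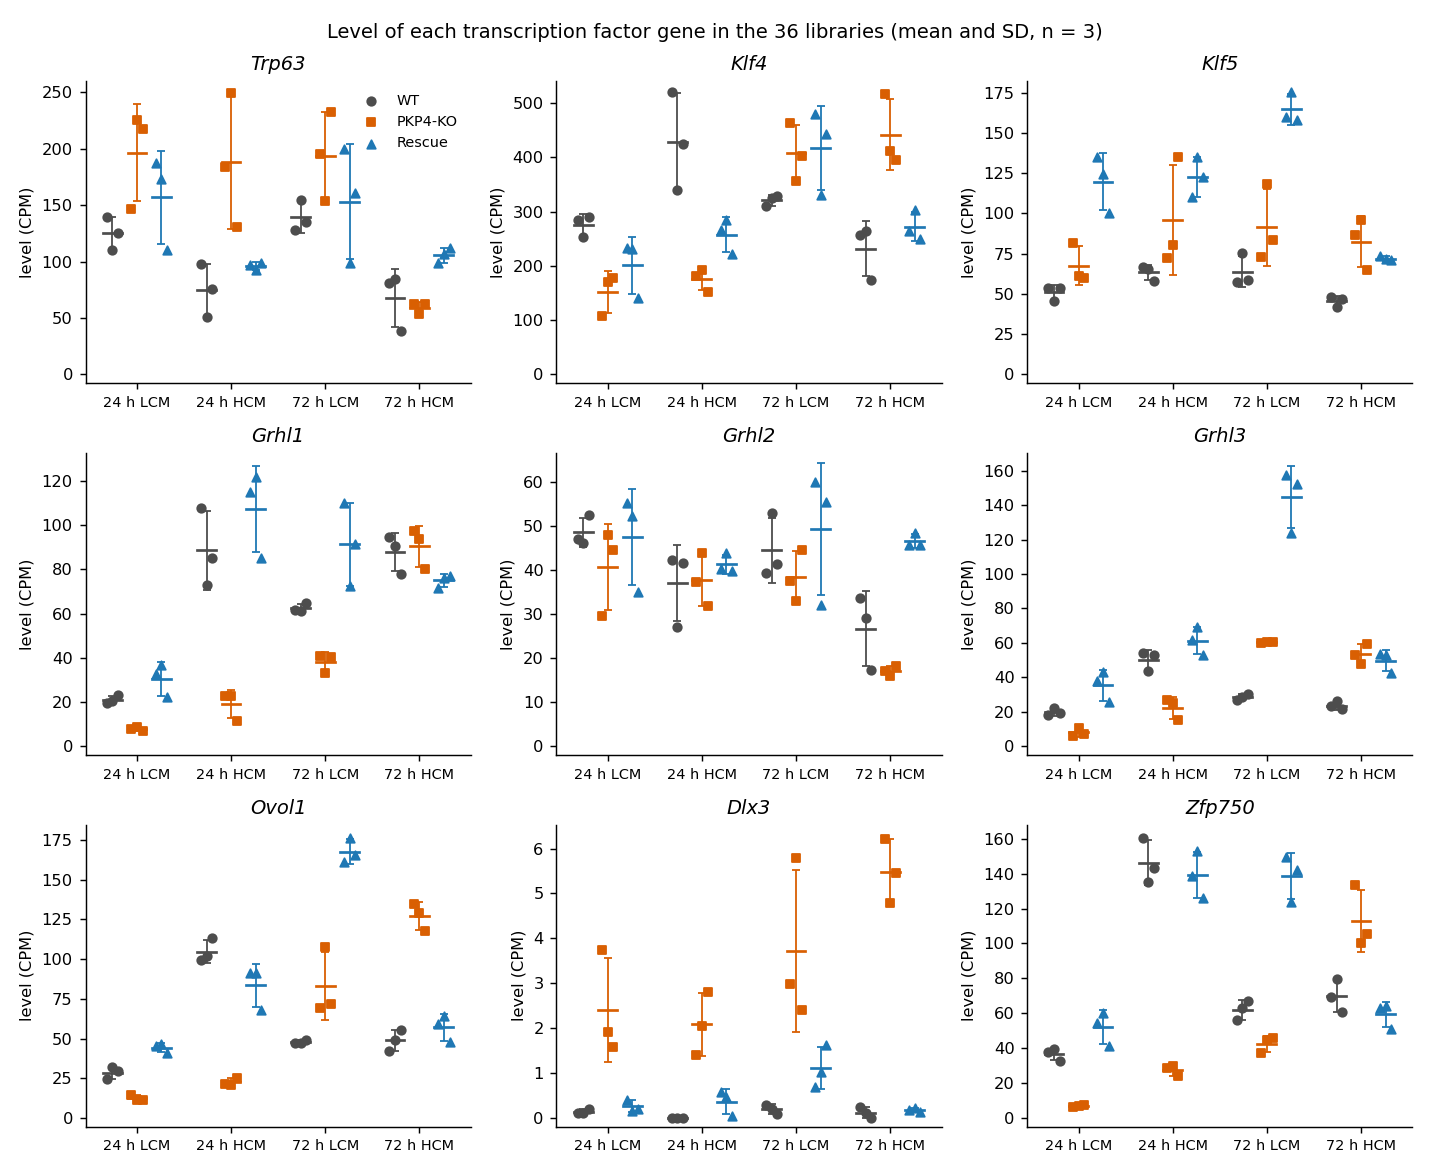
Level of each gene in CPM (y axis, linear) in the 3 libraries of each genotype at each time and medium (x axis), with points for libraries, horizontal bars for group means and error bars for the SD. Zfp750, Ovol1, Grhl1 and Grhl3 were lowest in PKP4-KO at 24 h LCM (7.02, 12.6, 7.74 and 8.0 CPM), while Dlx3 reached more than 2 CPM on average only in the 4 PKP4-KO groups.

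The order of the 12 groups shows which of these levels can be told apart. For Zfp750, the highest were WT 24 h HCM (146 CPM), Rescue 24 h HCM (139), Rescue 72 h LCM (138) and PKP4-KO 72 h HCM (113), which formed a chain of overlapping neighbours. The lowest were PKP4-KO 24 h HCM (27.3) and PKP4-KO 24 h LCM (7.02), both separate from their neighbours. Ovol1 had the clearest order, with 4 of 11 neighbouring pairs overlapping, from Rescue 72 h LCM (167) and PKP4-KO 72 h HCM (127) down to PKP4-KO 24 h HCM (22.4) and PKP4-KO 24 h LCM (12.6). Grhl3 stood apart at Rescue 72 h LCM (145) above all other groups, the next being Rescue 24 h HCM (61.4). For Grhl1, the groups from Rescue 24 h HCM (107) to WT 72 h HCM (87.7) overlapped in a chain, and PKP4-KO 24 h LCM (7.74) was the lowest. For Trp63, 10 of the 11 neighbouring pairs overlapped, from PKP4-KO 24 h LCM (197) to PKP4-KO 72 h HCM (59.3). All 11 pairs overlapped for Grhl2, between Rescue 72 h LCM (49.3) and PKP4-KO 72 h HCM (17.1). Klf4 ran from PKP4-KO 72 h HCM (441) to PKP4-KO 24 h LCM (151), with 9 pairs overlapping. Klf5 was highest in Rescue 72 h LCM (164), Rescue 24 h HCM (123) and Rescue 24 h LCM (119.8) and lowest in WT 72 h HCM (45.5).

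The first comparison asks which factors follow the calcium switch in WT cells. At 24 h, ZNF750, the grainyhead-like factors GRHL1 and GRHL3 and OVOL1 were several-fold higher in HCM than in LCM at the RNA level. Zfp750 stood at 37.9, 39.5 and 32.7 CPM in the 3 LCM libraries and at 160.4, 135 and 143 in the HCM libraries. Grhl1 stood at 19.6, 20.3 and 23.2 CPM in LCM and 108, 72.9 and 85.0 in HCM. In both genes the HCM libraries lay far above the LCM libraries. Ovol1 went from 24.3, 32 and 29.5 to 99.3, 102 and 113 CPM, and Grhl3 from 17.9, 22.4 and 19.4 to 54.4, 43.5 and 52.9 CPM, again with no overlap. By the quasi-likelihood test of edgeR, with p-values adjusted over 15114 genes by the Benjamini-Hochberg method, the log2 fold changes were 2.07 ± 0.21 (adjusted p = 3.06e-08) for Grhl1, 1.99 ± 0.15 (adjusted p = 1.53e-10) for Zfp750, 1.87 ± 0.16 (adjusted p = 1.23e-09) for Ovol1 and 1.34 ± 0.20 (adjusted p = 1.39e-05) for Grhl3, with the SE after each value. Klf4 rose less, by 0.63 ± 0.20 (adjusted p = 0.0354). That call rested on all 6 libraries but replicate 2 of WT 24 h HCM, since leaving out any one of the other 5 ended it (0.47 to 0.77 over the 6 fits, adjusted p up to 0.181), and it was also not called without TMM factors (0.36, adjusted p = 0.46). Trp63 (-0.74 ± 0.28, adjusted p = 0.0735), Grhl2 (-0.39 ± 0.23, adjusted p = 0.302) and Klf5 (0.32 ± 0.19, adjusted p = 0.331) did not pass the test. Trp63 passed only without replicate 1 of WT 24 h HCM (-0.98 to -0.53 over the left-out fits). Dlx3 held 0 counts in each HCM library and 2, 2 and 4 counts in LCM, which is too near the floor for a fold change. The test called it lower in HCM, but not without any one of the HCM libraries or replicate 3 of WT 24 h LCM. In all, 5 of the 9 genes were called higher and 1 lower, where 7.69% of all tested genes were called higher and 6.48% lower. The libraries of the 2 media did not overlap for any of the 9 genes, where 28.4% of tested genes separated. In bulk RNA, more cells with a factor and more RNA of it per cell cannot be told apart, here and in all comparisons that follow.

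In PKP4-KO at 24 h, few genes were called for the same calcium switch. Of the 9 factors, 4 were called higher, where 1.44% of all tested genes were called higher and 1.4% lower. Zfp750 rose from 6.41, 6.98 and 7.68 CPM in LCM to 28.5, 29.6 and 23.8 in HCM, a log2 fold change of 1.96 ± 0.15 (adjusted p = 6.28e-09). Grhl3 rose from 6.2, 10.7 and 7.12 to 26.6, 25.4 and 15.1 CPM (1.48 ± 0.20, adjusted p = 4.12e-05). Each gene thus began and ended lower than in WT. Grhl1 (1.30 ± 0.21, adjusted p = 4.15e-04) and Ovol1 (0.84 ± 0.16, adjusted p = 0.00217) also rose, and all 4 had HCM libraries above all LCM libraries, where 16.8% of tested genes separated in either direction. With only the 6 libraries compared in the fit, the call of Zfp750 was the 1 left. The response itself differed between PKP4-KO and WT for 1 of the 9 genes, Ovol1, by -1.03 ± 0.22 (adjusted p = 0.00534), where 1.23% of all tested genes were called higher and 2.79% lower. With only the 4 groups compared in the fit, that difference was -1.02 (adjusted p = 0.0525), and without TMM factors it was also not called. For Zfp750 the difference in response was -0.04 ± 0.21 (adjusted p = 0.982), for Grhl3 0.14 ± 0.28 (adjusted p = 0.898) and for Grhl1 -0.77 ± 0.29 (adjusted p = 0.169). In Rescue at 24 h, Grhl1 (1.81 ± 0.21, adjusted p = 4.3e-07), Zfp750 (1.42 ± 0.15, adjusted p = 1.14e-07), Ovol1 (0.91 ± 0.16, adjusted p = 1.13e-04) and Grhl3 (0.79 ± 0.19, adjusted p = 0.00605) rose with calcium, 4 of 9 genes where 6% of all tested genes were called higher and 5.96% lower. Grhl3 was not called without replicate 3 of Rescue 24 h LCM (0.60 to 0.95 over the left-out fits, adjusted p up to 0.0663) or without TMM factors (adjusted p = 0.0984). None of the 9 responses differed between Rescue and PKP4-KO at 24 h by edgeR's adjusted p (where 0.992% of all tested genes were called higher and 0.417% lower), with unadjusted p under 0.05 for 2 of the 9, and DESeq2 also called 0.

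**Figure D2:**
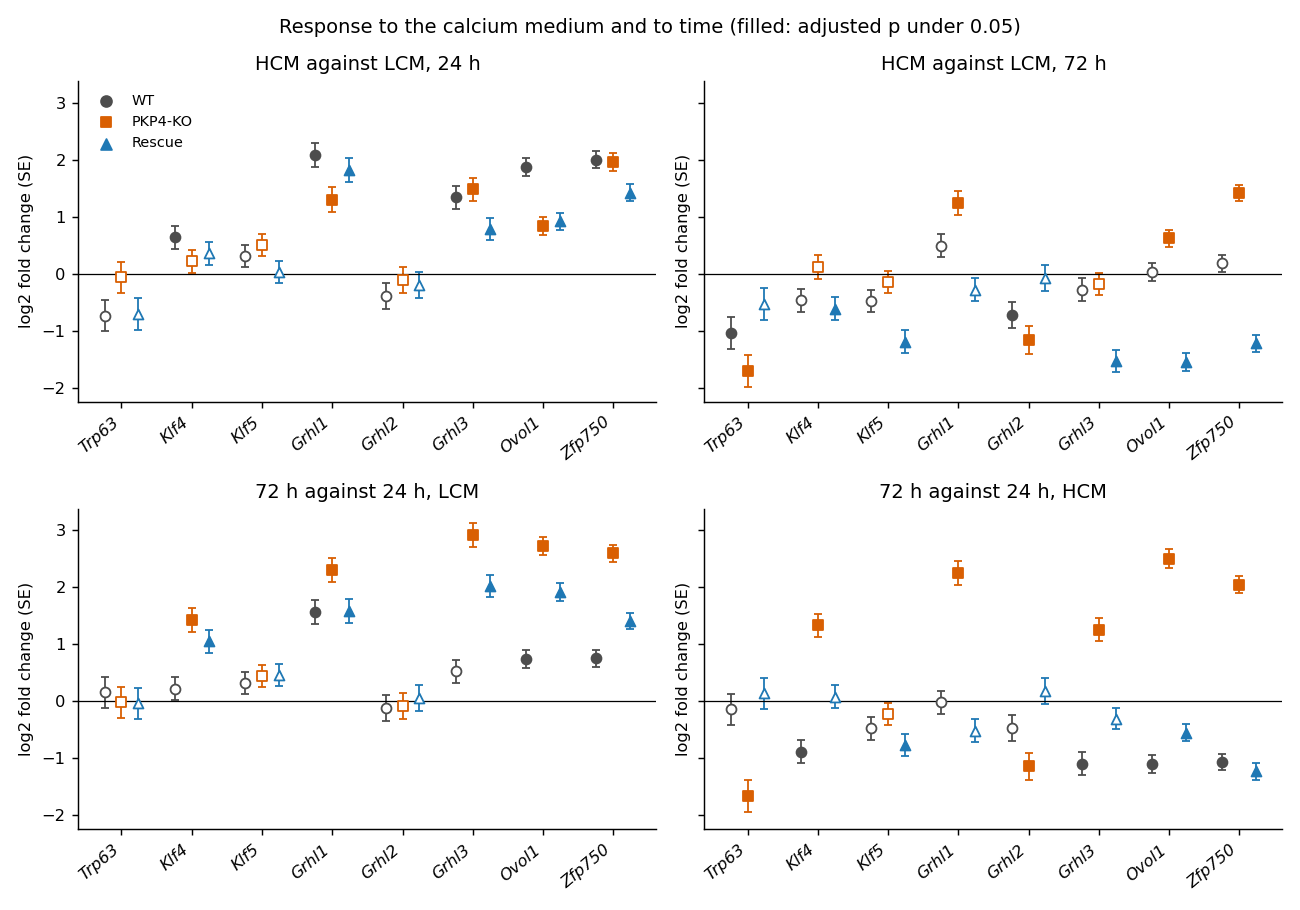
Log2 fold change with its SE (y axis) for 8 of the 9 genes (x axis; Dlx3 is left out because WT libraries hold few or no counts), from LCM to HCM in the upper panels and from 24 h to 72 h in the lower panels, with filled symbols for adjusted p under 0.05. At 24 h Zfp750 lies above 0 in every genotype (WT 1.99, Rescue 1.42, PKP4-KO 1.96), and from 24 h to 72 h in HCM PKP4-KO lies above 0 for Klf4, Grhl1, Grhl3, Ovol1 and Zfp750 (1.25 to 2.50), where WT lies at -0.01 or below.

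At 72 h, the genes called in the calcium contrast were not the same in each genotype. The calcium response of Rescue was not tested against that of WT. In WT, Klf4, Grhl1, Grhl3, Ovol1 and Zfp750 were not called. The 2 genes called were Trp63 (-1.04 ± 0.28, adjusted p = 0.00712) and Grhl2 (-0.73 ± 0.23, adjusted p = 0.0226), both lower in HCM (where 10.6% of all tested genes were called higher and 10.8% lower). Neither was called without replicate 3 of WT 72 h HCM, the library with the low TMM factor, in which Trp63 stood at 38.3 CPM against 80.7 and 84.3 in the other HCM libraries. Grhl2 was also not called without replicate 2 of WT 72 h LCM. The fits that left out a library gave -1.23 to -0.76 for Trp63 and -0.93 to -0.50 for Grhl2. In PKP4-KO, Zfp750 (1.41 ± 0.15, adjusted p = 3.74e-08), Grhl1 (1.24 ± 0.21, adjusted p = 3.37e-05) and Ovol1 (0.62 ± 0.15, adjusted p = 0.00286) were higher in HCM, and Trp63 (-1.71 ± 0.28, adjusted p = 3.41e-05) and Grhl2 (-1.17 ± 0.24, adjusted p = 4.13e-04) lower, where 12.9% of all tested genes were called higher and 19.7% lower. Without TMM factors the median of all genes moved to -0.77 there, Ovol1 stood at -0.050, and Grhl1 (0.54) was no longer called. The 9 genes then split into 1 called higher and 4 lower (4.29% higher and 48.2% lower over all genes under that scaling), since Klf5 (-0.83, adjusted p = 9.07e-04) and Grhl3 (-0.86, adjusted p = 0.00961) were called lower. The calcium response of Zfp750 was larger in PKP4-KO than in WT by 1.24 ± 0.21 (adjusted p = 2.46e-04), the 1 such call among the 9 (where 1.85% of all tested genes were called higher and 3.88% lower), and it was not called without TMM factors (0.84, adjusted p = 0.108). In Rescue, 6 genes were lower in HCM than in LCM at 72 h and none higher (where 13% of all tested genes were called higher and 12% lower). These were Ovol1 (-1.55 ± 0.16, adjusted p = 2.07e-08), Grhl3 (-1.54 ± 0.20, adjusted p = 1.03e-06), Zfp750 (-1.22 ± 0.15, adjusted p = 3.92e-07), Klf5 (-1.19 ± 0.19, adjusted p = 3.78e-05), Dlx3 (-2.51 ± 0.61, adjusted p = 0.00328) and Klf4 (-0.62 ± 0.20, adjusted p = 0.0273). The Klf4 call was lost without replicate 1 or 3 of either Rescue group at 72 h (-0.76 to -0.51) and without TMM factors (adjusted p = 0.25). The responses of Rescue and PKP4-KO at 72 h differed for 8 of the 9 genes, 2 higher and 6 lower in Rescue (where 18.1% of all tested genes were called higher and 13.4% lower), against 5 genes without TMM factors (44.5% higher and 4.19% lower over all genes under that scaling).

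The second comparison asks how PKP4-KO differs from WT. At 24 h, Klf4, Grhl1, Grhl3, Ovol1 and Zfp750 were called lower in PKP4-KO in both media, and the suprabasal factor Dlx3 was called higher. In HCM, Zfp750, the target of p63 that leads late differentiation, was 5.35-fold lower, with 28.5, 29.6 and 23.8 CPM in PKP4-KO against the WT values given above (-2.42 ± 0.15, adjusted p = 2.15e-13). Ovol1 stood at 21.1, 20.8 and 25.4 CPM and was 4.67-fold lower (-2.22 ± 0.16, adjusted p = 3.59e-12). Grhl1, a regulator of desmosomal cadherin genes, stood at 22.7, 22.7 and 11.6 CPM and was 4.65-fold lower (-2.22 ± 0.21, adjusted p = 9.82e-10). None of the 3 PKP4-KO libraries reached the lowest WT library for any of these 3 genes. Klf4, needed for the skin barrier, stood at 519.7, 339.6 and 424 CPM in WT and 181, 193 and 153 in PKP4-KO (-1.29 ± 0.21, adjusted p = 8.65e-06). Grhl3 stood at 26.6, 25.4 and 15.1 CPM in PKP4-KO, 2.24-fold lower (-1.17 ± 0.20, adjusted p = 1.64e-05). The libraries of the 2 groups did not overlap for either gene. In LCM, where WT levels were lower to begin with, the same 5 genes were lower in PKP4-KO, with differences of -2.38 ± 0.16 (adjusted p = 6.78e-13) for Zfp750, -1.44 ± 0.21 (adjusted p = 3.08e-06) for Grhl1, -1.31 ± 0.20 (adjusted p = 6.41e-06) for Grhl3, -1.19 ± 0.16 (adjusted p = 6.58e-07) for Ovol1 and -0.87 ± 0.21 (adjusted p = 0.00126) for Klf4. Both contrasts use the same genotypes but no library in common. All 10 calls held with each library left out in turn and under the other settings tried.

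The remaining 4 factors did not follow them, and Dlx3, called higher in both media, is given in counts below. Trp63, the basal regulator, stood at 97.7, 51.0 and 76.0 CPM in WT 24 h HCM and 184, 249 and 131 in PKP4-KO, and was higher in PKP4-KO by 1.33 ± 0.28 (adjusted p = 2.79e-04). The spread within both groups was wide, and the libraries did not overlap. In 24 h LCM the difference of Trp63 was 0.65 ± 0.28 (adjusted p = 0.0595) and passed only without replicate 1 of PKP4-KO 24 h LCM, whose level of 147 CPM was the lowest of its group (0.54 to 0.82 over the left-out fits). Klf5, the basal Krüppel-like factor, stood at 66.7, 65.2 and 58.3 CPM in WT 24 h HCM and 72.1, 80.5 and 135 in PKP4-KO (0.60 ± 0.19, adjusted p = 0.0136). Its call was lost without replicate 3 of either group (0.27 to 0.76, adjusted p up to 0.259). Klf5 in 24 h LCM (0.40 ± 0.19, adjusted p = 0.097) and Grhl2 in both media (0.03 ± 0.23 (adjusted p = 0.944) in HCM and -0.25 ± 0.23 (adjusted p = 0.394) in LCM) did not pass the test. In number, PKP4-KO at 24 h HCM had 3 of the 9 genes called higher and 5 lower, where 20.7% of all tested genes were called higher and 22.2% lower. At 24 h LCM 1 was called higher and 5 lower, where 19.7% of all tested genes were called higher and 20.6% lower. The groups did not overlap for 8 of the 9 genes in either medium, against 46.7% of tested genes in HCM and 50.6% in LCM. At 24 h HCM the summed Merkel cell markers also separated PKP4-KO (27.0 to 38.3 CPM) from WT (16.1 to 21.7), with Atoh1 at 0 in these libraries, and in LCM they overlapped. Their part in the results was not tested. The median log2 fold change of the 9 was -1.17 in HCM and -0.87 in LCM, against 0.00 for all genes in both. Around each locus, the median difference of the other tested genes within 5 Mb at 24 h HCM lay between -0.23 and 0.26.

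**Figure D3:**
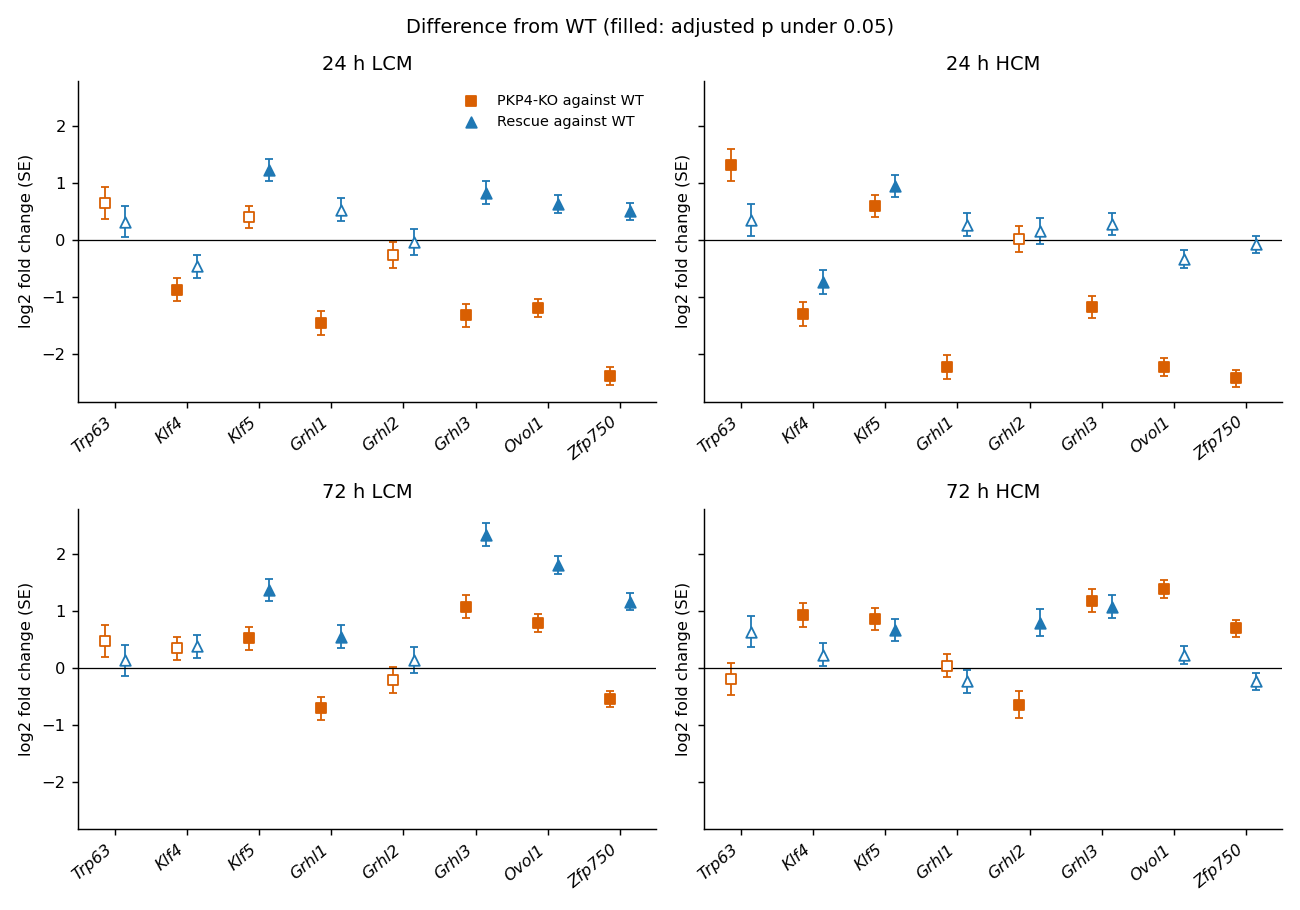
Log2 fold change with its SE (y axis) of PKP4-KO and of Rescue against the same WT libraries for 8 of the 9 genes (x axis), 1 panel per time and medium, with filled symbols for adjusted p under 0.05. At 24 h PKP4-KO lies below WT for Klf4, Grhl1, Grhl3, Ovol1 and Zfp750 (-0.87 to -2.42), and at 72 h HCM it lies above WT for Klf4, Grhl3, Ovol1 and Zfp750 (0.69 to 1.38).

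At 72 h, Klf4, Grhl1, Grhl3, Ovol1 and Zfp750 were no longer all lower in PKP4-KO. In HCM, Ovol1 stood at 42.0, 49.3 and 55.3 CPM in WT and 135, 129 and 117 in PKP4-KO (1.38 ± 0.16, adjusted p = 3.52e-08). Grhl3 stood at 23.1, 26.0 and 21.5 CPM in WT and 52.9, 47.8 and 59.5 in PKP4-KO (1.18 ± 0.20, adjusted p = 1.65e-05). Both genes were above every WT library in every PKP4-KO library. The groups did not overlap for 6 of the 9 genes, against 58.2% of tested genes. Klf4 (257, 265 and 174 against 517, 412 and 396 CPM) was higher by 0.93 ± 0.21 (adjusted p = 4.66e-04), and Zfp750 (69.5, 79.4 and 60.7 against 133, 100.4 and 105.3 CPM) by 0.69 ± 0.15 (adjusted p = 2.63e-04). Klf5 was also higher (0.85 ± 0.20, adjusted p = 6.43e-04). Grhl1 overlapped between the groups, at 94.6, 90.6 and 78 CPM in WT and 97.3, 93.9 and 80.0 in PKP4-KO, and did not pass (0.04 ± 0.20, adjusted p = 0.876). Grhl2 was the 1 gene called lower, with 33.7, 29.2 and 17.3 CPM in WT and 17.1, 16.0 and 18.3 in PKP4-KO (-0.65 ± 0.24, adjusted p = 0.0243), and Trp63 did not pass (-0.19 ± 0.28, adjusted p = 0.572). The Grhl2 call was lost without replicate 1 or 2 of either group (-0.88 to -0.46, adjusted p up to 0.158). So 6 genes were called higher and 1 lower, where 21.9% of all tested genes were called higher and 29.9% lower. At 72 h HCM the summed Merkel cell markers also separated the genotypes, at 7.56 to 9.40 CPM in PKP4-KO, 13.0 to 22.2 in WT and 37.9 to 41.3 in Rescue. Of these 5 markers, Atoh1 and Piezo2 were at 0 in all 9 libraries and Sox2 had the most counts. The immune markers summed to 1.02 to 1.45 CPM in PKP4-KO, against 0 to 0.177 in WT and 0.0389 to 0.333 in Rescue. The other sums overlapped between PKP4-KO and WT, and the part of these markers in the results was not tested.

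These 72 h HCM values depend on the scaling. Without TMM factors, the median of all genes in PKP4-KO against WT moved from -0.07 to -0.83, the share of all calls that were higher in PKP4-KO went from 42.2% to 13.5%, and the 9 genes split into 2 called higher and 3 called lower (8.39% higher and 53.8% lower over all genes under that scaling). Against that shifted median, Ovol1 lay 1.46, Grhl3 1.24, Klf4 0.96 and Zfp750 0.74 above it, and Grhl1 0.09, which is close to the differences with TMM factors. The scaling shifts all genes of a library alike, so this closeness follows from its construction and does not say which scaling is right. In raw direction, Zfp750 (-0.091) and Grhl1 (-0.75) changed sign, Grhl1 being called lower, Klf4 (0.13), Klf5 (0.08) and Grhl3 (0.40) were not called, and Ovol1 (0.63) and Dlx3 (4.49) were still called higher. In 72 h LCM, Grhl3 (1.08 ± 0.20, adjusted p = 5.6e-05) and Ovol1 (0.79 ± 0.15, adjusted p = 1.37e-04) were higher in PKP4-KO while Grhl1 (-0.71 ± 0.20, adjusted p = 0.00575) and Zfp750 (-0.54 ± 0.15, adjusted p = 0.00341) were still lower, and these 4 calls held without TMM factors. Klf5 was higher by 0.52 ± 0.19 (adjusted p = 0.0302), a call lost without TMM factors (0.10) and without replicate 2 of PKP4-KO or replicate 1 or 3 of WT (0.29 to 0.65). With Dlx3, 4 genes were called higher and 2 lower in 72 h LCM, where 21.3% of all tested genes were called higher and 23.8% lower. In that condition the keratinocyte markers summed to 68300 to 79883 CPM in PKP4-KO and 56125 to 68207 in WT. The immune markers summed to 0.305 to 0.750 CPM in PKP4-KO and 0 to 0.136 in WT. The other sums overlapped, and the part of these markers in the results was not tested.

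Dlx3, the suprabasal homeobox gene, was at or near 0 in WT and is given in counts. WT libraries held 0 to 6 counts of it, and all 3 WT libraries at 24 h HCM held 0. PKP4-KO libraries held 30, 49 and 38 counts at 24 h HCM, 53, 38 and 34 at 24 h LCM, 49, 69 and 48 at 72 h LCM and 49, 33 and 48 at 72 h HCM. Every PKP4-KO library thus held at least 5 times the counts of the highest WT library. Against a floor of 3 counts per WT library, the PKP4-KO level of Dlx3 at 24 h HCM was at least 11.7-fold that of WT. In the other media and times the ratio of PKP4-KO to WT in summed counts, scaled as CPM, was 15.6 (95% exact interval 7.67 to 36.9) at 24 h LCM, 17.7 (10.1 to 34) at 72 h LCM and 40.2 (18.0 to 112) at 72 h HCM. These intervals cover counting error only. The 4 differences were called (adjusted p = 2.26e-07, 1.74e-05, 3.83e-06 and 4.55e-07). Rescue libraries held 10, 9 and 1 counts at 24 h HCM, 9, 4 and 3 at 24 h LCM, 4, 6 and 3 at 72 h HCM and 19, 14 and 31 at 72 h LCM. Rescue was below PKP4-KO in all 4 conditions (adjusted p = 0.00101, 1.34e-04, 3.71e-07 and 0.0103). The last of these was not called without replicate 2 of PKP4-KO 72 h LCM or replicate 1 of Rescue 72 h LCM (adjusted p up to 0.0802). The level of Dlx3 in PKP4-KO, at most 2.11 CPM per kb in a group, was below the median over all groups of each of the other 8 genes per kb. In the group of that highest level, PKP4-KO 72 h HCM, Grhl2 stood at 1.99 CPM per kb, which was below Dlx3.

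The third comparison asks whether the added PKP4 brings the factors back to the WT level. At 24 h HCM, Rescue stood at 139, 153 and 126 CPM for Zfp750, 115, 122 and 85.2 for Grhl1 and 91.2, 91.5 and 67.7 for Ovol1. These were higher than in PKP4-KO by 2.35 ± 0.15 (adjusted p = 4.57e-13), 2.49 ± 0.21 (adjusted p = 1.28e-10) and 1.90 ± 0.16 (adjusted p = 9.09e-11). Grhl3 was higher by 1.45 ± 0.20 (adjusted p = 6.5e-07), and Klf4, at 265, 285 and 222 CPM, by 0.55 ± 0.20 (adjusted p = 0.0312). The Klf4 call was lost without replicate 1 or 3 of PKP4-KO or replicate 1 or 2 of Rescue (0.46 to 0.65) and without TMM factors (0.60, adjusted p = 0.12). Trp63, at 97.3, 92.4 and 98.7 CPM, differed from PKP4-KO by -0.97 ± 0.28 (adjusted p = 0.00578), a call lost without replicate 2 of PKP4-KO 24 h HCM (-1.17 to -0.70) and without TMM factors (-0.93, adjusted p = 0.0587). In all, 5 genes were called higher and 2 lower than in PKP4-KO, where 21.7% of all tested genes were called higher and 19% lower. Against the same WT libraries as above, Zfp750 (-0.07 ± 0.14, adjusted p = 0.789), Ovol1 (-0.33 ± 0.15, adjusted p = 0.133), Grhl1 (0.28 ± 0.20, adjusted p = 0.377), Grhl3 (0.29 ± 0.19, adjusted p = 0.329) and Trp63 (0.36 ± 0.28, adjusted p = 0.403) did not pass the test. Ovol1 was nonetheless below the lowest WT library in every Rescue library. Klf4 was still lower than in WT (-0.73 ± 0.21, adjusted p = 0.00907), though not without replicate 3 of Rescue or replicate 1 of WT (-0.87 to -0.57), nor without TMM factors (adjusted p = 0.149), and Klf5 and Dlx3 were higher, where 11.8% of all tested genes were called higher and 11.4% lower. These 3 genes and Ovol1 did not overlap between Rescue and WT, 4 of 9 against 35.1% of tested genes. For Dlx3 this rests on 10, 9 and 1 counts in Rescue against 0 in each WT library, which is near the floor. Missing the threshold does not show that Rescue and WT were equal. The melanocyte markers of Rescue at 24 h HCM (3.35 to 4.55 CPM) lay above those of WT (up to 1.75) and PKP4-KO (up to 2.01). Its Merkel cell markers (22.7 to 29.97 CPM) lay above WT (up to 21.7) and overlapped PKP4-KO. Its fibroblast markers (1.44 to 11.6 CPM) lay above PKP4-KO (up to 0.606) and overlapped WT. The part of these markers in the results was not tested.

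In the other conditions several factors were higher in Rescue than in WT. Klf5 was higher in Rescue than in WT in every condition, with 53.5, 45.8 and 53.5 CPM in WT and 135, 124 and 100 in Rescue at 24 h LCM (1.23 ± 0.20, adjusted p = 2.1e-05), 0.95 ± 0.19 (adjusted p = 5.23e-04) at 24 h HCM, 1.37 ± 0.20 (adjusted p = 2.61e-06) at 72 h LCM and 0.66 ± 0.19 (adjusted p = 0.00926) at 72 h HCM. At 72 h LCM, Grhl3 stood at 26.9, 28.8 and 30.2 CPM in WT, 60.2, 60.4 and 60.7 in PKP4-KO, and Rescue stood at 158, 124 and 152. Ovol1 stood at 46.9, 47.5 and 49.0 CPM in WT, 69.1, 108 and 72.0 in PKP4-KO, and 161, 176 and 165 in the Rescue libraries. For both genes every PKP4-KO library lay above WT and every Rescue library above PKP4-KO, where 55.2% of tested genes separated PKP4-KO from WT and 42.5% Rescue from PKP4-KO. Against WT these were differences of 2.34 ± 0.20 (adjusted p = 3.48e-10) and 1.81 ± 0.16 (adjusted p = 4.27e-10), and Zfp750 was higher by 1.16 ± 0.15 (adjusted p = 3.14e-07). Grhl1 was higher by 0.55 ± 0.20 (adjusted p = 0.0362), but in 5 of the 6 fits that left out a library, all but that without replicate 2 of Rescue 72 h LCM, it was not called (0.39 to 0.69), nor was it without TMM factors (adjusted p = 0.162). With Klf5 and Dlx3, 6 of the 9 genes were called higher and none lower, where 17.9% of all tested genes were called higher and 14.6% lower, and the groups did not overlap for 7 genes, against 43.5%. At 24 h LCM, Grhl3 (0.84 ± 0.20, adjusted p = 0.00194), Ovol1 (0.63 ± 0.16, adjusted p = 0.00305) and Zfp750 (0.51 ± 0.15, adjusted p = 0.0108) were higher than in WT, 4 genes with Klf5 where 13.5% of all tested genes were called higher and 11.4% lower. Without TMM factors 2 of these 4 calls were left (8.76% higher and 11.2% lower over all genes under that scaling), and Zfp750 was not called without replicate 2 of Rescue or replicate 3 of WT (0.39 to 0.65). At 72 h HCM, Grhl3 (1.08 ± 0.20, adjusted p = 1.04e-04), Grhl2 (0.80 ± 0.23, adjusted p = 0.00853) and Klf5 were higher than in WT, where 19.5% of all tested genes were called higher and 16.7% lower. The Grhl2 call was lost without replicate 3 of WT 72 h HCM (0.56 to 0.99).

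Against PKP4-KO, Rescue was higher at 24 h LCM for Zfp750 (2.89 ± 0.16, adjusted p = 3.57e-14), Grhl3 (2.15 ± 0.21, adjusted p = 1.97e-09), Grhl1 (1.98 ± 0.21, adjusted p = 2.02e-08), Ovol1 (1.82 ± 0.16, adjusted p = 4.35e-10) and Klf5 (0.83 ± 0.19, adjusted p = 0.00124), and lower for Dlx3 (where 18.2% of all tested genes were called higher and 15.5% lower). The same 5 genes were higher and Dlx3 lower at 72 h LCM, with 1.71 for Zfp750, 1.26 for Grhl3, 1.26 for Grhl1, 1.02 for Ovol1 and 0.85 for Klf5 (where 23.3% of all tested genes were called higher and 18.3% lower). At 72 h HCM the direction turned for Ovol1 (-1.15 ± 0.16, adjusted p = 4.22e-07) and Zfp750 (-0.93 ± 0.15, adjusted p = 4.28e-06), which were lower in Rescue. Klf4 (-0.70 ± 0.21, adjusted p = 0.00416) was also lower, and Dlx3 was lower as in the other conditions. Grhl2 (1.44 ± 0.24, adjusted p = 8.6e-06) and Trp63 (0.83 ± 0.28, adjusted p = 0.0100) were higher (where 37.2% of all tested genes were called higher and 29.5% lower). Rescue at 72 h also stood apart in its marker sums, in both media. In LCM, its keratinocyte markers summed to 39528 to 45619 CPM, against 56125 to 68207 in WT and 68300 to 79883 in PKP4-KO. Its melanocyte markers there (2.06 to 4.14 CPM) lay above those of WT (up to 1.504) and PKP4-KO (up to 1.83). The same held for its Merkel cell markers (26.6 to 42.9 CPM, against up to 23.2 and 25.4). In HCM, its keratinocyte markers summed to 29404 to 29953 CPM, against 55739 to 64637 in WT and 64072 to 69984 in PKP4-KO. Its melanocyte markers (4.32 to 6.67 CPM) and fibroblast markers (4.87 to 6.67) lay above those of WT (up to 3.29 and 1.53) and PKP4-KO (up to 1.74 and 0.908). Their part in the results was not tested. Without TMM factors the median of all genes stood at 1.37 in this contrast, and Ovol1 (0.026), Zfp750 (0.25) and Klf4 (0.48) were above 0 and, relative to that median, at -1.35, -1.13 and -0.89. The 9 genes then split into 5 called higher and 1 lower in Rescue (65.4% higher and 11.8% lower over all genes under that scaling).

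The fourth comparison asks how the factors change between 24 h and 72 h, and in HCM their courses differed between WT and PKP4-KO. In WT, Ovol1 was 2.14-fold lower (-1.10 ± 0.16, adjusted p = 8.66e-06), Grhl3 2.13-fold (-1.09 ± 0.20, adjusted p = 2.18e-04), Zfp750 2.09-fold (-1.07 ± 0.15, adjusted p = 5.55e-06) and Klf4 1.85-fold (-0.88 ± 0.21, adjusted p = 0.00297) at 72 h. Dlx3 was the 1 gene called higher, from 0 counts in each WT 24 h HCM library to 4, 2 and 0 counts, too few for a fold change, and that call was lost without any one of the 24 h libraries or replicate 1 of WT 72 h HCM. In PKP4-KO, Ovol1 rose 5.66-fold (2.50 ± 0.16, adjusted p = 5.71e-13), Grhl1 4.74-fold (2.25 ± 0.21, adjusted p = 9.87e-10), Zfp750 4.13-fold (2.05 ± 0.15, adjusted p = 7.2e-12), Klf4 2.52-fold (1.33 ± 0.21, adjusted p = 5.15e-06) and Grhl3 2.39-fold (1.25 ± 0.20, adjusted p = 6.08e-06). Trp63 was 3.17-fold lower (-1.66 ± 0.28, adjusted p = 1.71e-05) and Grhl2 2.2-fold (-1.14 ± 0.24, adjusted p = 2.13e-04). Marker sums also separated the times in PKP4-KO. Merkel cell markers stood at 27.0 to 38.3 CPM at 24 h and 7.56 to 9.40 at 72 h, and endothelial markers at 3.07 to 4.73 and 0.581 to 2.95. Keratinocyte markers stood at 44403 to 53808 and 64072 to 69984, and immune markers at 0.0466 to 0.369 and 1.02 to 1.45. The keratinocyte markers separated the times in WT as well, at 45180 to 52540 CPM at 24 h and 55739 to 64637 at 72 h. The other sums overlapped between the times in WT. The part of these sums in the results was not tested. Called were 1 gene higher and 4 lower in WT (where 9.16% of all tested genes were called higher and 8.69% lower), and 6 higher and 2 lower in PKP4-KO (where 24.3% of all tested genes were called higher and 31.4% lower). Without TMM factors the median of all genes in PKP4-KO fell by 1.16, the 9 genes split into 3 higher and 3 lower (8.7% higher and 60.5% lower over all genes under that scaling), and Ovol1 (1.44), Grhl1 (1.15) and Zfp750 (0.97) were the 3 called higher, while Klf5 (-1.27) joined Trp63 and Grhl2 as called lower. The difference between the 2 courses, PKP4-KO minus WT, was 3.60 ± 0.22 (adjusted p = 1.33e-12) for Ovol1, 3.11 ± 0.21 (adjusted p = 5.79e-12) for Zfp750, 2.35 ± 0.28 (adjusted p = 2.34e-07) for Grhl3, 2.26 ± 0.29 (adjusted p = 8.36e-07) for Grhl1, 2.22 ± 0.29 (adjusted p = 1.31e-06) for Klf4 and -1.52 ± 0.39 (adjusted p = 0.00442) for Trp63. These 6 of 9 were called, where 10.8% of all tested genes were called higher and 15.8% lower. In this contrast the median of all genes stood at -0.90 without TMM factors, and 5 genes were called higher and 3 lower (4.73% higher and 43.8% lower over all genes under that scaling). The differences then were 2.80 for Ovol1, 2.27 for Zfp750, 1.5 for Grhl3, 1.41 for Grhl1, 1.36 for Klf4 and -2.39 for Trp63, with Grhl2 (-1.53) also called lower. Dlx3 was called lower too, but this difference includes the WT counts given above, which are too few for a fold change. Dlx3 in PKP4-KO was also higher at 72 h, a call lost without replicate 1 or 2 of PKP4-KO 24 h HCM or replicate 1 of PKP4-KO 72 h HCM. The test of the difference was added after the values had been seen.

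In LCM, the genes called in each genotype were all higher at 72 h. In WT, Grhl1 (1.57 ± 0.21, adjusted p = 7.53e-06), Zfp750 (0.75 ± 0.15, adjusted p = 9.35e-04) and Ovol1 (0.74 ± 0.16, adjusted p = 0.0019) were higher at 72 h, 3 of 9 genes where 5.29% of all tested genes were called higher and 4.66% lower. The Zfp750 call was lost without TMM factors (0.53, adjusted p = 0.159). In PKP4-KO, Grhl3 (2.91 ± 0.21, adjusted p = 1.7e-11), Ovol1 (2.72 ± 0.17, adjusted p = 5.2e-13), Zfp750 (2.59 ± 0.16, adjusted p = 5.2e-13), Grhl1 (2.30 ± 0.22, adjusted p = 2.83e-09) and Klf4 (1.43 ± 0.21, adjusted p = 5.67e-06) were higher (where 12.4% of all tested genes were called higher and 13.7% lower). In Rescue the same 5 and Dlx3 (counts given above, a call lost without replicate 2 or 3 at 24 h or replicate 3 at 72 h) were higher (where 6.84% of all tested genes were called higher and 2.96% lower), led by Grhl3 (2.02 ± 0.20, adjusted p = 1.63e-08) and Ovol1 (1.92 ± 0.16, adjusted p = 6.82e-10). The rise was larger in PKP4-KO than in WT for Grhl3 (2.39 ± 0.28, adjusted p = 1.53e-06), Ovol1 (1.98 ± 0.22, adjusted p = 8.83e-07), Zfp750 (1.84 ± 0.21, adjusted p = 1.04e-06) and Klf4 (1.21 ± 0.29, adjusted p = 0.0102), 4 of 9 genes where 3.43% of all tested genes were called higher and 1.82% lower. The Klf4 difference was not called without TMM factors (1.04, adjusted p = 0.191). In HCM, Rescue had Zfp750 (-1.23 ± 0.15, adjusted p = 3.15e-07), Klf5 (-0.77 ± 0.19, adjusted p = 0.00383) and Ovol1 (-0.55 ± 0.15, adjusted p = 0.00891) lower at 72 h and none higher (where 13.6% of all tested genes were called higher and 10.7% lower). The Ovol1 call was lost without replicate 3 of Rescue 72 h HCM (-0.68 to -0.44). The 72 h change in HCM differed between Rescue and PKP4-KO for 8 of the 9 genes, all but Klf5 (where 27.1% of all tested genes were called higher and 20.1% lower), with -3.28 ± 0.21 (adjusted p = 1.38e-12) for Zfp750, -3.05 ± 0.22 (adjusted p = 1.83e-11) for Ovol1 and -2.76 ± 0.29 (adjusted p = 1.58e-08) for Grhl1. Without TMM factors 5 of these 8 were called (54.2% higher and 6.91% lower over all genes under that scaling). In LCM it differed for Zfp750 (-1.18 ± 0.21, adjusted p = 6.33e-04) and Ovol1 (-0.81 ± 0.22, adjusted p = 0.0263), 2 genes where 2.61% of all tested genes were called higher and 2.65% lower, and neither was called without TMM factors (3.48% higher and 1.34% lower over all genes under that scaling). Trp63 was not called over time in WT or Rescue in either medium, with log2 fold changes from -0.14 to 0.16.

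Genes that these factors are known to control, or that belong to their families, were counted from fixed lists that, like the 9, were chosen with results of these data known. Of 20 differentiation genes of the KLF4 and ZNF750 programme, PKP4-KO at 24 h HCM had 15 lower and 2 higher than WT, with a median of -2.28 against 0.00 for all tested genes. The share of calls there was 20.7% higher and 22.2% lower over all tested genes, and such shares stand beside the counts that follow. Among those with the largest differences were the lipoxygenase gene Aloxe3 (-3.97 ± 0.23, adjusted p = 3.29e-14), involucrin (-3.63 ± 0.30, adjusted p = 5.57e-11) and the transglutaminase gene Tgm1 (-3.59 ± 0.22, adjusted p = 1.47e-13). The suprabasal keratin Krt1 went the other way (4.02 ± 0.53, adjusted p = 3.23e-07), with 100 to 132 counts per library in WT and 1117 to 3073 in PKP4-KO. At 24 h LCM the list had 10 genes lower and 3 higher (median -0.98; 19.7% higher and 20.6% lower over all tested genes). At 72 h LCM it had 5 lower and 9 higher (median 0.69; 21.3% higher and 23.8% lower over all tested genes), and at 72 h HCM 4 lower and 9 higher (median 0.73; 21.9% higher and 29.9% lower over all tested genes), led there by Krt1 (6.56 ± 0.59, adjusted p = 3.6e-10) and Tgm3 (3.69 ± 0.21, adjusted p = 3.6e-14). Over time in HCM, 20 of the 20 rose in PKP4-KO (median 3.92; 24.3% higher and 31.4% lower over all tested genes), against 9 higher and 2 lower in WT (median 1.09; 9.16% higher and 8.69% lower over all tested genes). Without TMM factors, the test of the difference, PKP4-KO minus WT, called 12 of the 20 higher and 0 lower (median 1.77; 4.73% higher and 43.8% lower over all genes under that scaling). With calcium at 24 h, 17 of the 20 rose in WT (median 1.63; 7.69% higher and 6.48% lower over all tested genes) and 4 rose and 1 fell in PKP4-KO (median 0.34; 1.44% higher and 1.4% lower over all tested genes). Without TMM factors 11 rose in WT (3.88% higher and 11.8% lower over all genes under that scaling) and 3 in PKP4-KO (0.82% higher and 0.748% lower over all genes under that scaling), with none lower in either. Under that scaling, the test of the difference in response, PKP4-KO minus WT, called 0 of the 20 higher and 7 lower (median -0.94; 1.38% higher and 1.05% lower over all genes). Without TMM factors, the list had 8 genes higher and 6 lower at 72 h HCM (median -0.03, against -0.83 for all genes; 8.39% higher and 53.8% lower over all genes under that scaling). It had 17 higher and 0 lower over time in PKP4-KO (8.7% higher and 60.5% lower over all genes under that scaling), and at 24 h HCM 2 higher and 14 lower (20.2% higher and 17.8% lower over all genes under that scaling). The last shares also belong to the counts without TMM factors at 24 h HCM of the lists that follow.

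Of 11 genes bound or induced by grainyhead-like factors, 2 of which are also on the differentiation list, PKP4-KO at 24 h HCM had 10 lower and 1 higher than WT (median -1.89; 20.7% higher and 22.2% lower over all tested genes), and 9 lower and 1 higher without TMM factors. The tight-junction gene Cldn4 (-4.95 ± 0.20, adjusted p = 3.73e-17), the desmoglein gene Dsg1a (-3.33 ± 0.39, adjusted p = 5.51e-08) and the protease inhibitor gene Spint1 (-3.21 ± 0.15, adjusted p = 6.57e-16) were among them. At 24 h LCM 7 were lower and none higher (19.7% higher and 20.6% lower over all tested genes), and at 72 h HCM 4 were lower and 4 higher (21.9% higher and 29.9% lower over all tested genes), with a median of 0.21, which without TMM factors became 5 lower and 2 higher (-0.59), beside the shares under that scaling given for the differentiation list. In Rescue against PKP4-KO at 24 h HCM, 9 were higher and 1 lower (21.7% higher and 19% lower over all tested genes), among them Cldn4 (4.39 ± 0.20, adjusted p = 4.56e-16) and Tgm1 (4.20 ± 0.23, adjusted p = 1.72e-14). Of 12 targets of p63, PKP4-KO at 24 h HCM had 3 higher and 6 lower, and 3 and 5 without TMM factors (20.7% higher and 22.2% lower over all tested genes). The Notch ligand gene Jag2 was higher (2.09 ± 0.19, adjusted p = 2.46e-10), and the claudin gene Cldn1 was lower (-4.54 ± 0.22, adjusted p = 6.57e-16). At 72 h HCM none was higher and 5 were lower (21.9% higher and 29.9% lower over all tested genes), and without TMM factors 11 were lower, where the median of all genes was -0.83 (8.39% higher and 53.8% lower over all genes under that scaling). Among the 5 were Cldn1 (-2.20 ± 0.20, adjusted p = 3.6e-10) and the integrin gene Itga3 (-1.37 ± 0.14, adjusted p = 3.02e-09). Of 8 genes repressed by OVOL factors, 7 were tested, and at 24 h HCM 1 was higher and 4 lower in PKP4-KO (20.7% higher and 22.2% lower over all tested genes), and 1 higher and 2 lower without TMM factors. The 1 higher gene was Snai1, the Snail factor of epithelial-mesenchymal transition, with 4 to 5 counts per library in WT, 940 to 1041 in PKP4-KO and 1 to 7 in Rescue. Twist1 was lower (-1.86 ± 0.30, adjusted p = 1.02e-05).

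**Figure D4:**
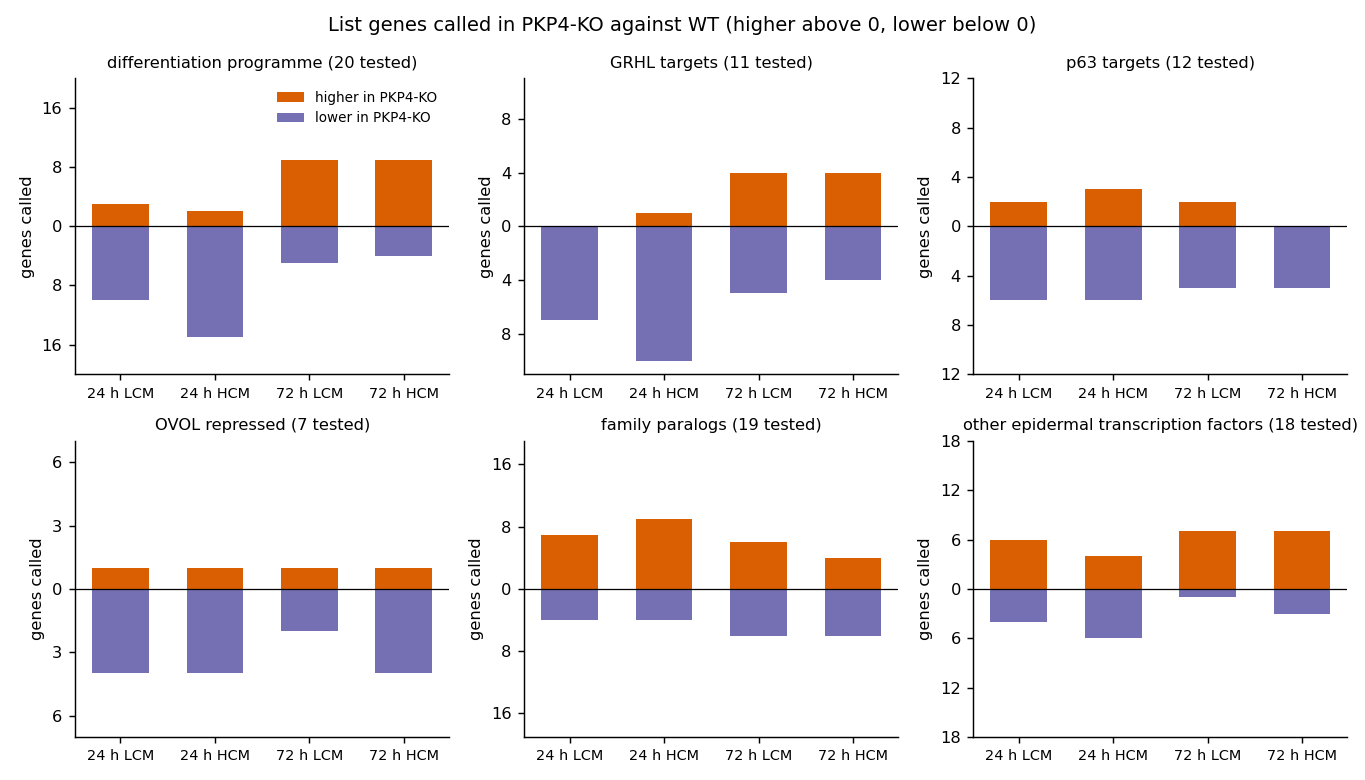
Number of list genes called higher (above 0) or lower (below 0) in PKP4-KO against WT (y axis, its range set by the number tested) at each time and medium (x axis), 1 panel per list. The differentiation list goes from 15 lower and 2 higher at 24 h HCM to 4 lower and 9 higher at 72 h HCM, while of the p63 targets more are lower than higher in each condition.

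Of the 20 close relatives of the 9 factors, 19 were tested, and at 24 h HCM 9 were higher and 4 lower in PKP4-KO (20.7% higher and 22.2% lower over all tested genes), and 9 higher and 3 lower without TMM factors. The p63 relative Trp73 (3.48 ± 0.17, adjusted p = 1.49e-15) and Dlx1 (4.53 ± 0.49, adjusted p = 1.11e-08) were higher, and Tfcp2l1, of the grainyhead superfamily, was lower (-3.46 ± 0.38, adjusted p = 1.37e-08). Dlx1 is a low gene, with 2 counts in each WT and 50 to 53 in the PKP4-KO libraries. Of 18 other epidermal transcription factors, 4 were higher and 6 lower at 24 h HCM (20.7% higher and 22.2% lower over all tested genes), and 4 and 4 without TMM factors. At 72 h HCM 7 were higher and 3 lower (21.9% higher and 29.9% lower over all tested genes), which without TMM factors became 4 higher and 8 lower (8.39% higher and 53.8% lower over all genes under that scaling). Hopx, a homeobox gene of differentiating keratinocytes, was lower at 24 h HCM (-3.11 ± 0.16, adjusted p = 4.57e-15), as was Prdm1, the gene of BLIMP1 (-3.08 ± 0.39, adjusted p = 2.13e-07). Tfap2c, an AP-2 factor, was higher at 24 h HCM (3.54 ± 0.30, adjusted p = 1.19e-10) and at 72 h HCM (5.54 ± 0.32, adjusted p = 4.46e-14).

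Across the 36 libraries, Pearson's r of log2 CPM describes which of the 9 moved alike. The libraries differ in genotype, medium, time and depth, and r holds these differences too. It was 0.93 for Grhl1 with Zfp750, 0.91 for Grhl3 with Ovol1 and 0.89 for Ovol1 with Zfp750. Trp63 had values of -0.56 with Grhl1, -0.54 with Zfp750, -0.46 with Ovol1, -0.19 with Klf4 and -0.15 with Grhl3, and of 0.72 with Grhl2, 0.29 with Dlx3 and 0.24 with Klf5. Among all tested genes, Ovol1 was most like Tgm1 (0.96), Esrp2 (0.95) and Gm45351 (0.94), and Grhl3 was most like Ovol1 (0.91), Esrp2 (0.88) and Gm20482 (0.88). Grhl1 was most like Dsg1b, Rnh1 and Mpzl3 (0.95, 0.94 and 0.94), and Zfp750 like Arhgap40, Zfp185 and Adgrf2 (0.95, 0.94 and 0.94). Trp63 was most like Abr, Uba2 and Cpsf1 (each 0.93), and Grhl2 like Hps5, Hnrnpk and Rnf216 (0.95, 0.94 and 0.93). Klf4 (0.86 with X2810047C21Rik1, 0.84 with Pgm2 and 0.82 with Rmc1) and Klf5 (0.84 with Arpin, 0.83 with Fkbp10 and 0.83 with Tsc22d1) had less close partners. Dlx3 was most like Fam151b, Ckmt1 and Echdc2 (0.92, 0.92 and 0.90).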

How the data were processed

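Poly(A) RNA of 36 keratinocyte libraries, 3 for each of 12 groups, was sequenced strand-specifically (149 bp, paired-end). Per the labels and the study's methods, the authors aligned reads with HISAT2 2.1.0 to GRCm39 plus the GFP-PKP4 sequence. They sorted the alignments and removed secondary ones with SAMtools 1.10, and counted reads per gene with featureCounts 2.0.0 and Ensembl 105. The deposited values are raw counts per gene, with 13602728 to 22467187 per library and 28780 of 55358 genes with a read. All 37 mitochondrial genes are at 0. From these counts, edgeR 4.0.16 (R 4.3.3) with TMM factors and its expression filter (15114 genes kept) fitted 1 quasi-likelihood model with a mean for each group (24 residual degrees of freedom). Contrasts numbered 28, and 4 on the change from 24 h to 72 h were added after the values had been seen. P-values were adjusted over all tested genes by Benjamini-Hochberg, and called means an adjusted p under 0.05. The SE was derived from the test, as the absolute log2 fold change divided by the square root of the quasi-likelihood F statistic. CPM are counts scaled by library size and TMM factor. The fit was tested on simulated counts, a step whose outcome is not given here and on which no result rests. Alternatives were DESeq2 1.42.0, library sizes without TMM factors, no filter, at least 10 counts in every library, a fit of the groups compared alone, the replicate number as a block, and each library left out. The replicate numbers met the pairing criterion, with deviations of same-numbered libraries correlated above 0.1 in every pair, for HCM against LCM in WT at 24 h (0.35 to 0.48) and for Rescue against PKP4-KO at 72 h LCM (0.30 to 0.72), and in no other comparison. The 9 genes, the gene lists and the tests were chosen with earlier results of these data known. Named beside the 9 were up to 4 called genes of each list with the largest log2 fold change in a comparison, and the 3 genes with the highest Pearson's r with each of the 9 over the libraries (log2 CPM, prior count 2). Of the genes this rule selects, 1 gene is not reported here. Exact intervals (95%) and the floor of 3 counts per library cover counting error only. Promoter sequences were copied from RefSeq (GRCm38.p6).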

Additional observations from a re-analysis of the deposited data

Results flagged for a closer look

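The following differences between genotypes in the response of a gene passed the test of the difference itself, an interaction term in the quasi-likelihood model of edgeR with p-values adjusted over all tested genes. All values are differences of log2 fold changes. In the response to calcium at 24 h, Ovol1 differed between PKP4-KO and WT by -1.03. At 72 h, Zfp750 differed between them by 1.24. Between Rescue and PKP4-KO at 72 h, the response to calcium differed by -2.63 for Zfp750, -2.17 for Ovol1, -1.53 for Grhl1, -1.36 for Grhl3, -1.04 for Klf5, -3.08 for Dlx3, 1.08 for Grhl2 and 1.17 for Trp63. In this comparison Rescue was called lower in HCM than in LCM for 5 of the 6 genes with a negative difference, and Grhl1, at -0.29, was not called, so the sign does not by itself say which genotype moved. Trp63 was not called there without replicate 2 of PKP4-KO 72 h HCM, replicate 3 of PKP4-KO 72 h LCM or replicate 2 of Rescue 72 h LCM (0.94 to 1.42), and Grhl2 was not called without the last of these (0.86 to 1.26). Without TMM factors, Klf5 (-0.22, adjusted p = 0.513), Grhl3 (-0.56, adjusted p = 0.222) and Grhl1 (-0.72, adjusted p = 0.129) were not called there. Nor were the differences between PKP4-KO and WT for Ovol1 at 24 h (-0.74) and Zfp750 at 72 h (0.84).

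The change from 24 h to 72 h in HCM differed between PKP4-KO and WT by 3.60 for Ovol1, 3.11 for Zfp750, 2.35 for Grhl3, 2.26 for Grhl1, 2.22 for Klf4 and -1.52 for Trp63. In LCM it differed by 2.39 for Grhl3, 1.98 for Ovol1, 1.84 for Zfp750 and 1.21 for Klf4. Between Rescue and PKP4-KO in HCM it differed by -3.28 for Zfp750, -3.05 for Ovol1, -2.76 for Grhl1, -2.32 for Dlx3, -1.56 for Grhl3, -1.25 for Klf4, 1.31 for Grhl2 and 1.80 for Trp63. In LCM it differed by -1.18 for Zfp750 and -0.81 for Ovol1. The Dlx3 difference rests on few counts and was not called without replicate 1 of PKP4-KO 24 h HCM, replicate 1 or 2 of Rescue 24 h HCM or replicate 3 of Rescue 72 h HCM (-2.85 to -1.85). The Ovol1 difference in LCM was not called in 7 of the 12 fits that left out a library (-0.92 to -0.58, adjusted p up to 0.105). Without TMM factors, the Klf4 difference between PKP4-KO and WT in LCM was 1.04 (adjusted p = 0.191) and was not called. Between Rescue and PKP4-KO, Klf4 (-0.12), Grhl3 (-0.43) and Dlx3 (-1.22) in HCM and Zfp750 (-0.92) and Ovol1 (-0.55) in LCM were also not called under that scaling. The PKP4-KO 72 h HCM libraries, which enter the HCM differences, are those with the lowest TMM factors (0.481 to 0.546), and the part of this in the differences was not tested.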

How the results depend on the processing

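Of 155 called differences of the 9 genes over 32 contrasts, DESeq2 and the replicate block left all 155 called in the same direction. So did the filter of 10 counts in every library for the 138 it could test. Without a filter 6 of 155 were no longer called, with the compared groups alone in the fit 12 of 152, and in the fits that left out a library 69 of 1110, which concern 24 differences. The block as a model of pairing also left each count of genes called as it was, 6 for HCM against LCM in WT at 24 h and 6 for Rescue against PKP4-KO at 72 h LCM. Scaling had the largest effect, since without TMM factors 29 calls were lost and 5 changed sign, and 48 of 108 group levels moved by more than 1 SD. Among values called under at least 1 of the 2 scalings, those with the opposite sign were, for PKP4-KO against WT at 72 h HCM, -0.75 for Grhl1 (adjusted p = 0.0224) and -0.091 for Zfp750 (adjusted p = 0.746). For Rescue against PKP4-KO at 72 h HCM they were 0.48 for Klf4, 0.99 for Klf5, 0.91 for Grhl1, 1.07 for Grhl3, 0.026 for Ovol1 and 0.25 for Zfp750, and for HCM against LCM in PKP4-KO at 72 h -0.050 for Ovol1. The share of all calls that were higher moved by over 10 points in 23 of 32 contrasts. For HCM against LCM in PKP4-KO at 72 h, the 9 genes went from 3 called higher and 2 lower to 1 higher and 4 lower. The number of the 9 genes called without TMM factors was 5 in place of 3 for Rescue against WT at 72 h HCM (all genes 32.1% higher and 8% lower under that scaling) and 2 in place of 4 at 24 h LCM (8.76% higher and 11.2% lower). It was 8 in place of 6 for the 72 h change of PKP4-KO minus WT in HCM (4.73% higher and 43.8% lower). It was 0 in place of 1 for the calcium response of PKP4-KO minus WT at both 24 h (1.38% higher and 1.05% lower) and 72 h (0.582% higher and 8.05% lower), and 5 in place of 8 for that of Rescue minus PKP4-KO at 72 h (44.5% higher and 4.19% lower). For the 72 h change of Rescue minus PKP4-KO it was 5 in place of 8 in HCM (54.2% higher and 6.91% lower) and 0 in place of 2 in LCM (3.48% higher and 1.34% lower). With the compared groups alone, it was 1 in place of 4 for HCM against LCM in PKP4-KO at 24 h, and for 72 h against 24 h in HCM 3 in place of 5 in WT and 5 in place of 3 in Rescue. It was 0 in place of 1 for the calcium response of PKP4-KO minus WT at 24 h, 2 in place of 1 for the same at 72 h (3 with DESeq2), and 1 in place of 2 for the 72 h change of Rescue minus PKP4-KO in LCM (1 also without a filter). Leaving out a library gave 0 to 2 for HCM against LCM in WT at 72 h, 1 to 2 for the calcium response of PKP4-KO minus WT at 72 h and 1 to 3 for the 72 h change of Rescue minus PKP4-KO in LCM. Beyond the change of scale, the cause of these shifts was not tested. Depth limits Dlx3, which in WT never exceeded 6 counts. The median difference of the genes within 2 Mb of each of the 9 at 24 h HCM lay between -0.42 and 0.54, against -0.23 and 0.26 within 5 Mb.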
